A study of Arabidopsis thaliana with 6 samples.

Results

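Heat shock chaperones and the transcription factors that control them were followed in untreated Arabidopsis thaliana seedlings with reduced expression of GBPL3. The set was given by gene identifier and holds 10 of the 32833 genes in the count table. It has 5 chaperone genes (HSP101, HSP70-4, HSP90.1, HSP17.6II and HSP17.6A) and 5 regulators (HSFA2, HSFA7A, HSFB1, MBF1C and DREB2A). The study compared messenger RNA of whole 7-day-old seedlings of the Col-0 wild type and of a gbpl3 mutant, with 3 libraries per genotype. All were untreated and were raised on 1/2 MS with 1% sucrose, and RNA came from about 50 mg of seedlings per sample. GBPL3 encodes a large guanylate-binding GTPase, located at the nuclear pore basket according to the title of the series. The genotype labels of the mutant libraries run from gbpl3_1 to gbpl3_3. They were read as replicates of 1 mutant because the design speaks of triplicates, but the labels do not exclude 3 alleles, in which case each gbpl3 mean, SD and test would run over alleles with 1 library each. No separate cultures are named for the libraries, so the p-values reflect only the spread among these samples, which may be technical.

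In plants, heat shock factors (HSFs) bind heat shock elements, which are inverted repeats of GAA and TTC, and switch on genes for chaperones that hold, refold or disaggregate proteins. HSFs of the A1 class start this response, and they raise expression of further regulators such as HSFA2, HSFA7A, HSFB1, MBF1C and DREB2A, which shape and extend it. Without heat most of these genes are expressed at low levels, whereas related constitutive chaperones fold proteins at all times.

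Total counts were 9530643 to 12911891 per library, at which 3 counts correspond to 0.232 to 0.307 CPM (counts relative to the library total, with TMM scaling). GBPL3 (AT5G46070) was lower in every gbpl3 library, at 67.6 ± 1.46 CPM (mean ± SD, n = 3) in Col-0 and 16.4 ± 2.12 CPM in gbpl3 (log2 fold change -2.04, SE 0.12, adjusted p = 5.11e-09). Of 20677 genes tested with edgeR's quasi-likelihood test, 10.7% had a Benjamini-Hochberg adjusted p below 0.05, with 6.06% higher and 4.69% lower in gbpl3. Such genes are said here to have risen or fallen. Values of all 3 libraries of a genotype lay beyond all 3 of the other for 28.1% of the genes tested. All 10 root markers and all 7 shoot markers had counts in both genotypes. In gbpl3, 3 of the root markers were lower and 2 of the shoot markers higher. The root markers did not move together: 8 had negative and 2 positive log2 fold changes, from -4.25 to 0.81. At an unadjusted p below 0.05, 6 of them were lower and 1 higher. The summed level of the root markers was 4393 to 4597 CPM in Col-0 and 3462 to 3672 CPM in gbpl3, and that of the shoot markers was 44160 to 50224 CPM in Col-0 and 51117 to 60070 CPM in gbpl3.

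DREB2A fell in gbpl3 seedlings and was the only gene of the 10 to pass the test, while none of the 3 chaperone genes that could be tested did. With 1 of 8 tested genes called lower and 0 called higher, the set stood against 4.69% and 6.06% of all genes tested. At an unadjusted p below 0.05, 1 gene of the set (HSFB1) was higher, and neither DESeq2 nor limma on log2(FPKM + 1) called any higher. HSP17.6II and HSP17.6A had too few counts to be tested. The 95% interval of the difference lay within 2-fold either way for 6 of the 7 tested genes that were not called, the exception being HSFA2. Libraries of the genotypes did not overlap for 3 of the 10 genes and for 2 of the 8 tested, beside 28.1% of all genes tested.

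**Figure D1:**
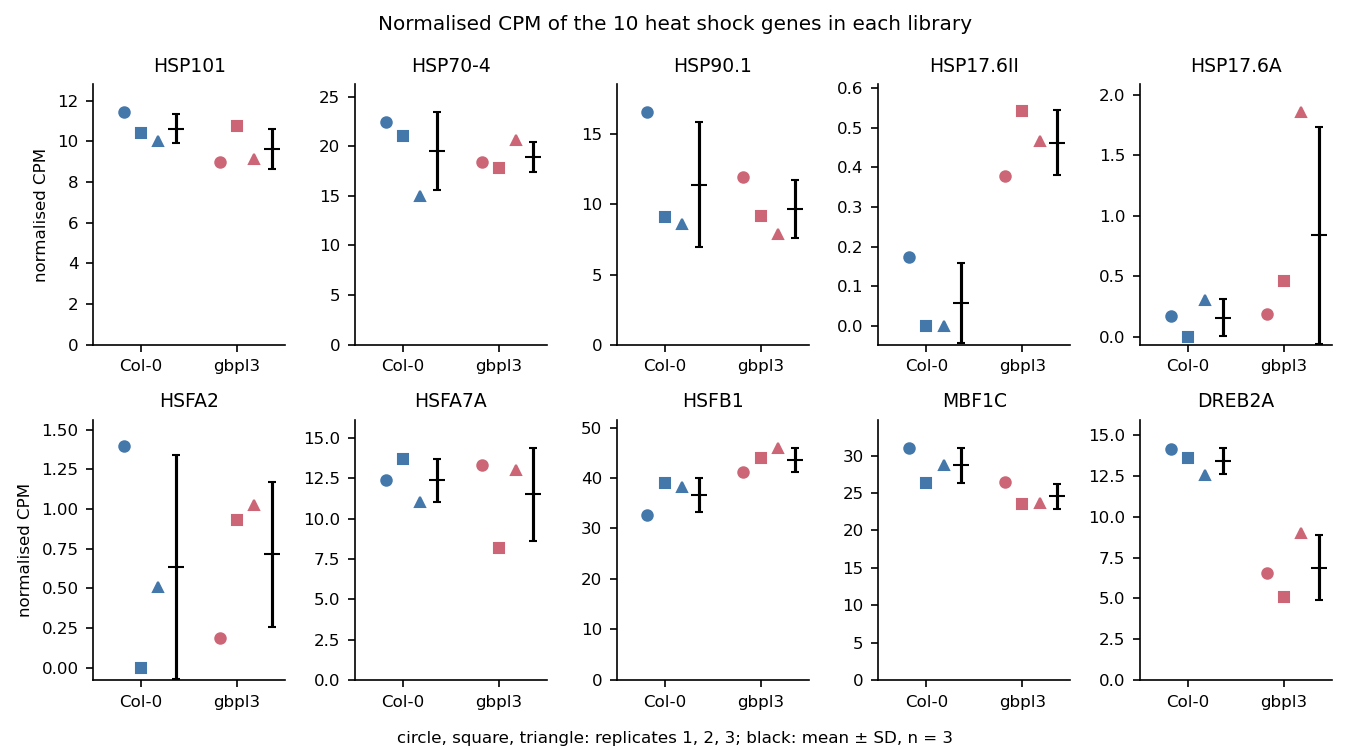
Normalised CPM of the 10 genes in each library (vertical axis, own scale per gene, circles, squares and triangles for replicates 1, 2 and 3) with the mean ± SD of each genotype in black. The 3 gbpl3 values of DREB2A, from 5.11 to 9.02 CPM, all lie below the 3 Col-0 values, from 12.6 to 14.1 CPM, while for most other genes the genotypes share their range.

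DREB2A (AT5G05410, chr5:1602205-1604112, plus strand of TAIR10.1, 2 exons) encodes an AP2/ERF transcription factor that binds dehydration-responsive elements and acts in both drought and heat, in the latter upstream of HSFA3. Its level was 14.1, 13.6 and 12.6 CPM in Col-0 replicates 1 to 3 and 6.53, 5.11 and 9.02 CPM in gbpl3 replicates 1 to 3. The raw counts behind these values were 162, 166 and 123 in Col-0 and 69, 66 and 97 in gbpl3. All gbpl3 libraries were below all Col-0 libraries, with gbpl3 replicate 3 the nearest to wild type. The fall was 1.96-fold, with a 95% interval of 1.45-fold to 2.66-fold (log2 fold change -0.97, SE 0.21, adjusted p = 0.0057). It was called whichever library was left out, with log2 fold changes of -1.21 to -0.79 and adjusted p-values of 0.00417 to 0.0297. The call was lost in limma on log2(FPKM + 0.1) (log2 fold change -1.04, adjusted p = 0.0601) and on log2(FPKM + 1) without a filter on low values (-0.81, adjusted p = 0.0555). In bulk seedlings, fewer cells of a type and less RNA per cell cannot be told apart. DREB2A shares 73 bases with AT5G05420 on the opposite strand, which had 48 counts over all libraries beside 683 for DREB2A.

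The regulators' own start regions are shown because some of them carry the element that HSFs bind, and DREB2A is among these. An arrangement of 3 units, GAANNTTCNNGAA or its reverse complement TTCNNGAANNTTC, was searched on both strands in the 250 bases before the annotated start of each gene. It was found upstream of 3 of the 10 genes, DREB2A, HSFA2 and HSFA7A, beside 106 of 27443 windows of the same length in the genome (0.386%). The windows of HSP101, HSP90.1, HSP17.6A and MBF1C, without a match, run into neighbouring genes. Only 250 bases before annotated starts were searched, so a gene without a match there may still carry the element elsewhere. The windows of DREB2A (chr5:1601955-1602204, plus strand) and HSFA7A (chr3:19264891-19265140, plus strand), taken from the RefSeq TAIR10.1 genome, read as follows with the matches in capitals, and for HSFA2, whose window runs into the neighbouring gene AT2G26140, only the match (chr2:11135536-11135548, plus strand) is given.

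DREB2A: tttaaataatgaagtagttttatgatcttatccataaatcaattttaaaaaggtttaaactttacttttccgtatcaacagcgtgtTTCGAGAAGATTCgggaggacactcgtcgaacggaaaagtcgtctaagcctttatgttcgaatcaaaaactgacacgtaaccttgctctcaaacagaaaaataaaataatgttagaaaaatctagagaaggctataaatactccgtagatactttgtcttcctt

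HSFA7A: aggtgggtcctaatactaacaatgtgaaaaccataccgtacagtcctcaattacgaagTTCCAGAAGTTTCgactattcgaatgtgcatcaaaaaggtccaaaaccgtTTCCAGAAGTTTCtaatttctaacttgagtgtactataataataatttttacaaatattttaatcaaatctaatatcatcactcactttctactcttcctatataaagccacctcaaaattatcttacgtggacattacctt

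HSFA2: GAAGTTTCTGGAA

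The single DREB2A match, TTCGAGAAGATTC, lay 164 to 152 bases before the start. HSFA7A held the same 13 letters, TTCCAGAAGTTTC, at 2 places, 192 to 180 and 142 to 130 bases before its start, and the HSFA2 match lay 88 to 76 bases before its start. Of these 3 genes with a match in the window, only DREB2A passed the test. A shorter form with 2 units, GAANNTTC or TTCNNGAA, which overlaps the longer one, was found upstream of 4 genes (HSP17.6A in addition) and in 16.1% of all windows. The dehydration-responsive element searched as ACCGAC or GCCGAC was in none of the 10 windows and in 7.09% of all windows. The abscisic acid response element core, searched as ACGTGTC or ACGTGGC, was in 2 of them (DREB2A and HSFA2) and in 6.39% of all windows.

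HSFA2 (AT2G26150, chr2:11135624-11137792, plus strand) encodes the factor that prolongs acquired thermotolerance and is among the genes most strongly induced by heat. It had 16, 0 and 5 counts in Col-0 and 2, 12 and 11 counts in gbpl3. Col-0 replicate 2 had none at all and Col-0 replicate 1 had the most, so the genotypes overlapped fully. The log2 fold change was 0.19 (SE 0.84, 95% interval -1.57 to 1.95, adjusted p = 0.932), an interval that a 2-fold change in either direction would still fall inside. Leaving out single libraries gave log2 fold changes from -0.42 (without Col-0 replicate 2) to 1.57.

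HSFA7A (AT3G51910, chr3:19265141-19266806, plus strand) is a class A HSF that heat induces. It was measured at 12.4, 13.7 and 11.0 CPM in Col-0 and 13.4, 8.20 and 13.0 CPM in gbpl3. Only gbpl3 replicate 2 lay below the wild-type range. On the log2 scale the difference was -0.11 (SE 0.20, 95% interval -0.53 to 0.30, adjusted p = 0.799), and it was 0.09 without that library.

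HSFB1 (AT4G36990, chr4:17440177-17442151, plus strand, HSF4 in RefSeq) is a class B HSF that represses transcription of heat-induced genes, HSFA2 and HSFA7A among them. Its level was 32.7, 38.9 and 38.1 CPM in Col-0 and 41.1, 43.9 and 45.9 CPM in gbpl3. All gbpl3 libraries exceeded all Col-0 libraries, with Col-0 replicate 1 apart from the other two. The log2 fold change of 0.25 (SE 0.11, 95% interval 0.02 to 0.49) did not pass the test, at an unadjusted p of 0.0375 and an adjusted p of 0.176.

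MBF1C (AT3G24500, chr3:8918267-8919683, plus strand) is a transcriptional coactivator needed for basal thermotolerance. It was at 31.0, 26.3 and 28.7 CPM in Col-0 and 26.51, 23.59 and 23.62 CPM in gbpl3. The highest gbpl3 library reached just above the lowest wild-type library. Its log2 fold change was -0.22 (SE 0.13, 95% interval -0.49 to 0.04, adjusted p = 0.300). On the opposite strand, MBF1C shares 124 bases with AT3G24503, 176 with AT3G04685 and 22 with AT3G24495. These had 13666, 189 and 1337 counts, in that order, against 1796 of MBF1C. The strand setting of the counting is not given, so within the shared bases reads of MBF1C and of these genes cannot be told apart here.

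HSP101 (AT1G74310, chr1:27936508-27940369, minus strand) is the cytosolic ClpB-type disaggregase that acquired thermotolerance requires. Its level was 11.4, 10.4 and 10.02 CPM in Col-0 and 8.995, 10.8 and 9.12 CPM in gbpl3. Only gbpl3 replicate 2 lay inside the wild-type range. The log2 fold change was -0.14 (SE 0.18, 95% interval -0.52 to 0.24, adjusted p = 0.709). On the opposite strand AT1G74300 shares 101 bases with it and had 196 counts, against 688 of HSP101.

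HSP70-4 (AT3G12580, chr3:3991117-3993886, minus strand, HSP70 in RefSeq) is a cytosolic HSP70 induced by heat. It was at 22.4, 21.0 and 15.0 CPM in Col-0 and 18.4, 17.79 and 20.6 CPM in gbpl3. The gbpl3 values lay within the wild-type range, whose lower end was set by Col-0 replicate 3. Its difference was -0.05 on the log2 scale (SE 0.16, 95% interval -0.38 to 0.28, adjusted p = 0.905).

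HSP90.1 (AT5G52640, chr5:21352557-21355147, plus strand) is the heat-inducible cytosolic HSP90. It was at 16.6, 9.12 and 8.59 CPM in Col-0 and 11.9, 9.21 and 7.91 CPM in gbpl3. In Col-0, replicate 1 stood well above the other libraries, and it was also the wild-type library with the most HSFA2 counts and the highest level of HSP101 and HSP70-4. The log2 fold change was -0.24 (SE 0.24, 95% interval -0.75 to 0.26, adjusted p = 0.601), and it turned to 0.12 without Col-0 replicate 1.

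**Figure D2:**
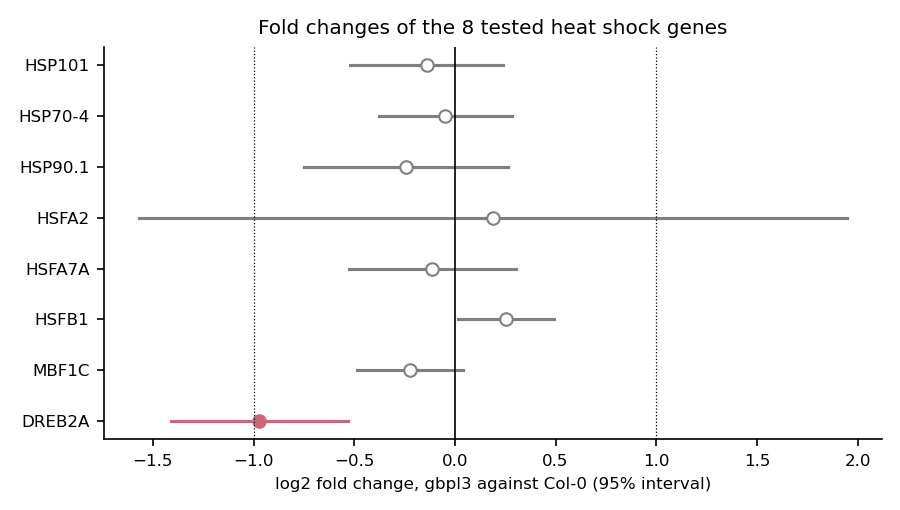
Log2 fold change of gbpl3 against Col-0 for the 8 tested genes (horizontal axis) with 95% intervals as bars. Filled red marks an adjusted p below 0.05, and dotted lines mark a 2-fold change. DREB2A, at -0.97, is the only filled point, and HSFA2 has the widest interval, from -1.57 to 1.95.

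HSP17.6II (AT5G12020, chr5:3882231-3883111, minus strand) and HSP17.6A (AT5G12030, chr5:3883957-3884838, minus strand) encode cytosolic class II small HSPs, which bind unfolding proteins without ATP, and lie next to each other. HSP17.6II had 2, 0 and 0 counts in Col-0 and 4, 7 and 5 counts in gbpl3, so the genotypes did not overlap. Its depth-adjusted ratio was 7.81 with an exact 95% counting interval of 1.84 to 70.0. HSP17.6A had 2, 0 and 3 counts in Col-0 and 2, 6 and 20 counts in gbpl3, where replicate 3 held most of them and replicate 1 was no higher than wild type. Its ratio was 5.47, with an interval of 2.08 to 18.1. These intervals cover counting error only. With no filter on low counts, neither passed edgeR's quasi-likelihood test, with adjusted p-values of 0.270 for HSP17.6II and 0.190 for HSP17.6A, nor DESeq2, at 0.303 and 0.244.

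Seed storage transcripts differed between the genotypes as well. The 19 seed markers summed to 1.31 to 4.60 CPM in the Col-0 libraries and to 28.0, 109 and 265 CPM in gbpl3 replicates 1 to 3. Of the 19, 12 did not pass the filter, which asks for counts in several libraries. CRU3 was among these, with 0 counts in Col-0 and 1088 in gbpl3. The other 7, which passed the filter through their gbpl3 counts, were higher there, beside 6.06% of all genes tested. The markers with no count in Col-0 were 8 of the 19: CRB, CRU2, CRU3, SESA1, SESA3, SESA4, SESA5 and FUS3. The part of this difference in the small HSP values was not tested.

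Per kilobase of exon, MBF1C and HSFB1 had the highest wild-type levels of the set, at 23.8 ± 1.98 and 20.5 ± 1.90 CPM per kb, which overlapped within 1 SD. HSFA7A followed at 10.7 ± 1.16 and DREB2A at 8.14 ± 0.482 CPM per kb. From DREB2A down, HSP70-4 at 7.73 ± 1.56, HSP90.1 at 5.43 ± 2.12 and HSP101 at 3.16 ± 0.215 CPM per kb each overlapped the next within 1 SD. HSFA2 at 0.339, HSP17.6A at 0.182 and HSP17.6II at 0.066 CPM per kb formed the bottom of the order and could not be ranked among themselves. In gbpl3, DREB2A stood at 4.17 ± 1.20 CPM per kb, below HSP70-4 at 7.515 and beside HSP90.1 at 4.60 CPM per kb. HSFB1, at 24.5 CPM per kb, was then above MBF1C, at 20.4 CPM per kb.

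**Figure D3:**
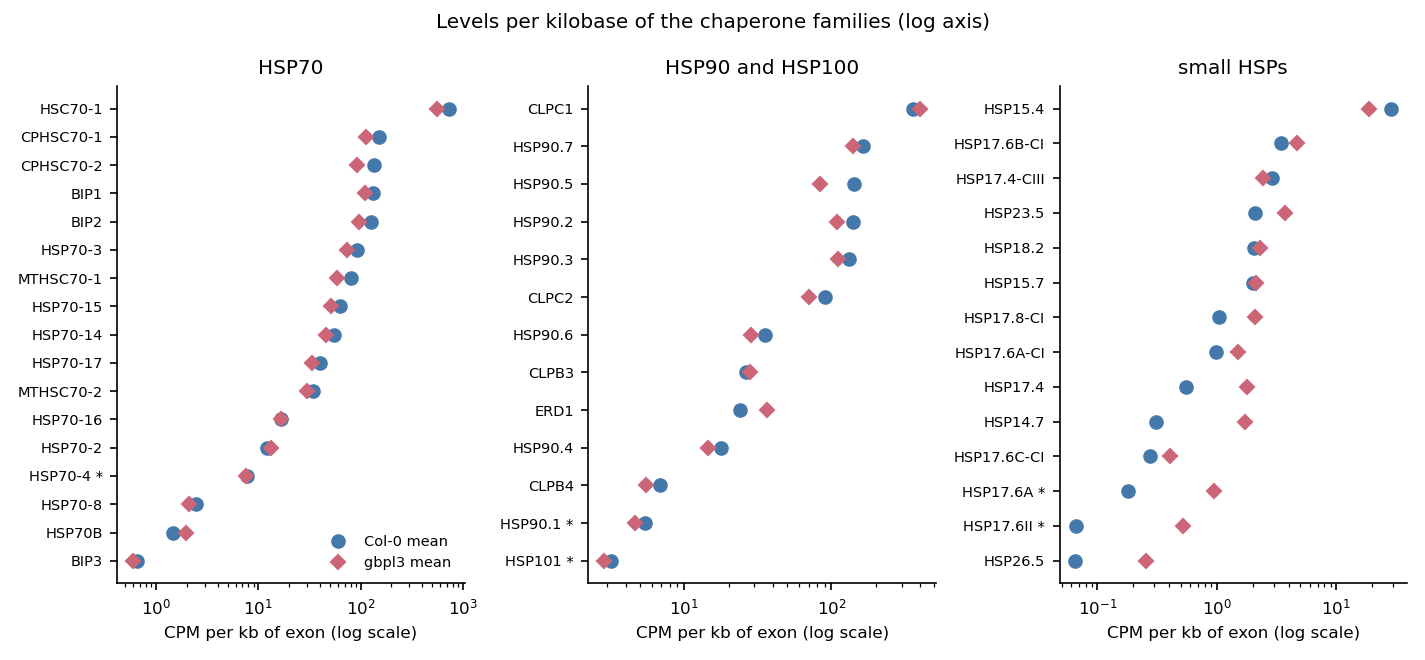
Mean level per kilobase of exon (horizontal log axis, CPM per kb) of the HSP70, HSP90 and HSP100, and small HSP families in Col-0 (blue circles) and gbpl3 (red diamonds), with asterisks on the genes of the set. HSP101 at 3.16 and HSP90.1 at 5.43 CPM per kb in Col-0 are the lowest of the 13 HSP90 and HSP100 genes, and genes with a mean of 0 in a genotype (HSP70T-1, HSP21, HSP22 and HSP23.6) cannot be drawn on this axis.

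Other genes of the heat response were taken from 6 lists: HSFs, small HSPs, HSP70s, HSP90s with HSP100s, cochaperones with other heat-induced genes, and the DREB2 family with the proteins that control DREB2A. Without the 10 genes above they held 95 genes, of which 78 were tested, 1 rose and 13 fell. The share that fell was 16.7%, beside 4.69% of all genes tested, and the median log2 fold change was -0.11 beside -0.0034 for all genes. The count of falls depended on the libraries. Leaving out Col-0 replicate 1 gave 4 and leaving out Col-0 replicate 3 gave 6, whereas it was 2 without gbpl3 replicate 1 and 3 when gbpl3 replicate 3 was left out. By limma on log2(FPKM + 1), 1 gene fell.

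The genes that fell were mainly constitutive chaperones of the HSP70 and HSP90 families. In the HSP70 family 7 of 16 tested genes fell, a share of 43.75% beside 4.69% of all genes tested, and 0 rose. The median log2 fold change was -0.26, and neither an unadjusted p below 0.05 nor DESeq2 gave any that was higher. DESeq2 also called 7 lower, while limma on log2(FPKM + 1) called 0, and 10 were lower at an unadjusted p below 0.05. HSC70-1, the main constitutive cytosolic HSP70, fell from 1874 ± 58.1 to 1442 ± 80.8 CPM (log2 fold change -0.38, adjusted p = 0.0168). The cytosolic HSP70-3 had a log2 fold change of -0.33 (adjusted p = 0.0347). Both chloroplast members fell, CPHSC70-1 by 0.42 and CPHSC70-2 by 0.57 on the log2 scale (adjusted p = 0.0182 and 0.0075). The mitochondrial MTHSC70-1 fell by 0.44 and BIP2, an HSP70 of the endoplasmic reticulum, by 0.38 on the log2 scale (adjusted p = 0.0194 and 0.0215). The heat-inducible HSP70B had 3.80 ± 0.349 CPM in Col-0 and 4.99 ± 0.709 CPM in gbpl3 and did not pass the test (adjusted p = 0.429). All 6 named falls, and those of HSP90.2 and CLPC2 below, lost their call without gbpl3 replicate 1 and without gbpl3 replicate 3. Col-0 replicate 1 also decided it for CPHSC70-1, MTHSC70-1, BIP2, HSP70-3, HSP90.2 and CLPC2, Col-0 replicate 3 for HSC70-1, BIP2, HSP70-3, HSP90.2 and CLPC2, and gbpl3 replicate 2 for HSP70-3 and CLPC2. The part of the root and shoot marker difference in these values was not tested.

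In the HSP90 and HSP100 families 3 of 11 tested genes fell (27.3%) and 1 rose (9.09%), beside 4.69% and 6.06% of all genes tested. The median log2 fold change was -0.29. At an unadjusted p below 0.05, 7 were lower and 1 higher. DESeq2 called 4 lower and 1 higher, and limma on log2(FPKM + 1) called 0. The chloroplast HSP90.5 fell from 399 ± 102 to 235 ± 26.49 CPM (log2 fold change -0.76, adjusted p = 0.00188), whichever library was left out. The constitutive cytosolic HSP90.2 fell by 0.36 on the log2 scale (adjusted p = 0.022), and so did CLPC2, a chloroplast Clp chaperone, by 0.36 (adjusted p = 0.0352). ERD1, a chloroplast Clp subunit known for its induction by dehydration and senescence, rose from 83.8 ± 18.8 to 128 ± 5.38 CPM (log2 fold change 0.61, adjusted p = 0.0055), also in every fit that left out 1 library. HSP90.5 and ERD1 passed in no limma fit, with adjusted p-values of 0.0815 and 0.109 on log2(FPKM + 1).

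Of the small HSPs, 8 of 15 were tested, 1 fell (12.5%, beside 4.69% of all genes tested) and 0 rose, with a median of 0.30. The 1 that fell was HSP15.4, from 30.0 ± 3.23 to 19.5 ± 1.46 CPM (log2 fold change -0.62, adjusted p = 0.00553), and it was also the most abundant of the family. It fell whichever library was left out and in limma on log2(FPKM + 1), but not in limma on log2(FPKM + 0.1) (adjusted p = 0.0732) or on log2(FPKM + 1) without a filter (adjusted p = 0.0652). At an unadjusted p below 0.05, 1 tested small HSP was higher, HSP23.5, which is mitochondrial and had an adjusted p of 0.110. Over all 15, those not tested included, DESeq2 and limma on log2(FPKM + 1) each called 1 higher. Over all small HSPs, the 2 genes of the set included, the summed level was 49.7, 43.4 and 44.5 CPM in Col-0 and 39.7, 47.6 and 43.9 CPM in gbpl3, so the genotypes overlapped. Without HSP15.4, a choice made after its values were seen, they summed to 17.44, 17.1 and 13.1 CPM in Col-0 and 20.4, 26.53 and 25.8 CPM in gbpl3. In this second sum every gbpl3 library was above every Col-0 library, but leaving out the 1 gene that fell favours such a separation. Neither sum has a test. HSP23.6, a mitochondrial small HSP picked after its values were seen, had no count in Col-0 and 11, 9 and 4 counts in gbpl3. Against an assumed floor of 3 counts for the whole Col-0 group its ratio was 7.81, and its counting interval began at 5.88.

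None of the 13 other HSF genes tested rose or fell in edgeR's quasi-likelihood test, and none had an unadjusted p below 0.05. Their median log2 fold change was 0.06. Over all 18 other HSFs listed, those under the filter included, DESeq2 called 1 higher and 0 lower. Of the A1-class factors that start the response, the most abundant were HSFA1B, at 17.1 ± 2.17 CPM in Col-0 and 16.9 ± 2.55 CPM in gbpl3 (adjusted p = 0.979), and HSFA1D, at 13.7 ± 4.08 and 12.8 ± 1.60 CPM (adjusted p = 0.806). HSFA1A was at 5.47 ± 1.06 and 5.59 ± 1.72 CPM (adjusted p = 0.983). HSFA1E was at 3.14, 3.53 and 3.17 CPM in Col-0 and 1.89, 2.55 and 1.77 CPM in gbpl3, with every gbpl3 library below every Col-0 library. Its log2 fold change of -0.65 (SE 0.35, unadjusted p = 0.0815, adjusted p = 0.282) did not pass the test. A pair of low HSFs singled out after their values were seen differed in opposite directions. HSFA6A had 2, 0 and 2 counts in Col-0 and 9, 8 and 20 in gbpl3, a ratio of 9.03 (counting interval 3.24 to 34.9). HSFA6B had 20, 10 and 18 counts in Col-0 and 2, 7 and 0 in gbpl3, a ratio of 0.183 (0.0790 to 0.377). Both were under the filter, and without it their adjusted p-values in edgeR's quasi-likelihood test were 0.0408 and 0.0456. HSFA6B was not called lower by DESeq2.

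Beside the fall of DREB2A, none of the 9 other genes tested from its family and its control passed edgeR's quasi-likelihood test, none had an unadjusted p below 0.05 and DESeq2 called 0. Their median log2 fold change was 0.12. DREB2B, a close relative, was at 4.57 ± 0.735 CPM in Col-0 and 4.67 ± 2.49 CPM in gbpl3 (adjusted p = 0.983). RCD1, a nuclear protein that binds DREB2A and limits its activity, was at 195 ± 25.8 and 215 ± 4.77 CPM (adjusted p = 0.460). NF-YC10, which joins DREB2A in activating heat-induced genes, was at 8.26 ± 0.512 and 8.18 ± 1.43 CPM (adjusted p = 0.980). GRF7, a repressor of DREB2A transcription, was under the filter, with 7, 5 and 23 counts in Col-0 and 3, 5 and 2 in gbpl3, a ratio of 0.279 (counting interval 0.123 to 0.575). Most of its counts were in Col-0 replicate 3. Whether DREB2A differed more than its relatives was not tested.

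Of the cochaperones and other heat-induced genes, 2 of 21 fell (9.52%, beside 4.69% of all genes tested) and 0 rose. The median log2 fold change was -0.21. At an unadjusted p below 0.05, 6 were lower and 0 higher, and DESeq2 called 0 in either direction. FES1A, which protects cytosolic HSP70 from degradation, fell from 16.9 ± 2.25 to 11.2 ± 1.98 CPM (adjusted p = 0.0331), and SGT1A, a partner of HSP90, by 0.49 on the log2 scale (adjusted p = 0.0337). DESeq2 called neither (adjusted p = 0.0503 and 0.0555). The FES1A call was lost without replicate 1 or 3 of Col-0 or replicate 1 or 2 of gbpl3, and that of SGT1A without any library but Col-0 replicate 3. For comparison, 1 of 15 genes of the unfolded protein response of the endoplasmic reticulum fell, BIP2, a share of 6.67% beside 4.69% of all genes tested, with a median of -0.26. DESeq2 called 3 of these genes lower, edgeR without a filter 4 and limma on log2(FPKM + 1) 0, and 7 were lower at an unadjusted p below 0.05.

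**Figure D4:**
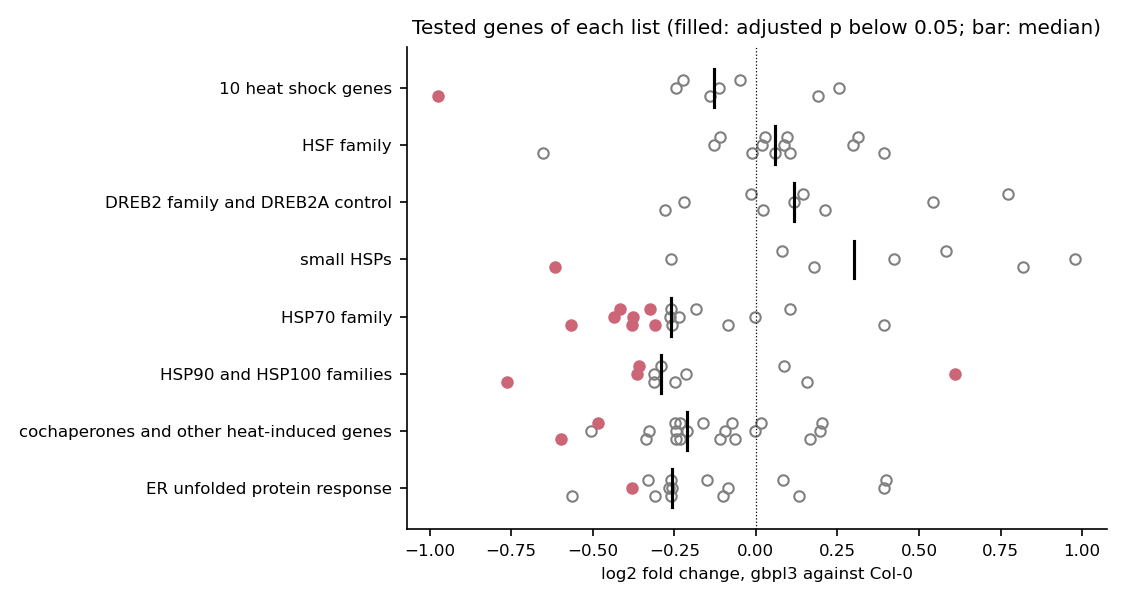
Log2 fold change of gbpl3 against Col-0 (horizontal axis) for each tested gene of the set, of the 6 heat lists without the set, and of the unfolded protein response list. Filled red marks an adjusted p below 0.05 and the black bar is the list's median. The filled points of the HSP70 family all lie to the left of its median of -0.26, and DREB2A at -0.97 is the lowest point drawn.

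Of 10 genes of the circadian clock, which many plant transcripts follow, 1 fell (10%, beside 4.69% of all genes tested) and 9 did not pass the test. The 1 that fell was PRR5, a repressor in the clock, from 93.1 ± 4.82 to 72.4 ± 4.04 CPM (adjusted p = 0.0239), a log2 fold change of -0.36 with an SE of 0.10. Whether the genotypes differed in the time of day at harvest was not tested.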

How the data were processed

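Strand-specific messenger RNA libraries were made with Illumina protocols, per the labels' protocols. The authors deposited raw counts per gene and FPKM values. HISAT2 2.0.4, HTSeq 0.6.1p1 and TAIR10 were used, per the submitters' processing notes. Of the strand setting, the handling of multi-mapping reads and read filters, nothing is given in the sources used here. The deposited counts are whole numbers and were tested as such, and the deposited FPKM values served only in limma fits. Groups came from sample titles, with the mutant numbers 1 to 3 read as replicates.

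Genes were filtered with filterByExpr, scaled by TMM and tested with the quasi-likelihood F test of edgeR 4.0.16 under R 4.3.3 on all 6 libraries, with Benjamini-Hochberg adjustment over 20677 genes and a threshold of 0.05. SE is the log2 fold change divided by the square root of F. Ratios of low counts have exact conditional 95% intervals. As alternatives the fit was repeated with DESeq2 1.42.0, with upper-quartile or RLE scaling, no filter, 1 CPM in 3 libraries, a replicate block, each library left out, and limma 3.58.1 on FPKM with pseudocounts of 1 and 0.1. Library pairs within a genotype differed by more than sampling noise (chi-square per degree of freedom 4.97 to 14.4). Pairs across genotypes gave 9.98 to 34.6, so the highest pair within a genotype, Col-0 replicates 1 and 2, exceeded the lowest of these. The fitting script was tested on simulated data.

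Members and lists were chosen with earlier results of these data known. Named list genes are up to 6 called genes per list by adjusted p, or the 2 most abundant where none was called. HSP70B, HSP23.5, HSP23.6, HSFA1A, HSFA1E, PRR5, HSFA6A, HSFA6B, DREB2B and GRF7 were named after their values were seen. GBPL3 was taken to be AT5G46070 from background knowledge. Coordinates, sequences and exon lengths are from RefSeq TAIR10.1, which held 99.1% of the 32833 identifiers. Of the 50-base stretches of HSP101 exons 0.196% occurred elsewhere in the genome, and none did for the other 9 genes.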

Additional observations from a re-analysis of the deposited data

How the results depend on the processing

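The call of DREB2A as the only gene of the set to fall held under all scalings, filters on counts, DESeq2, the replicate block, each left-out library and limma on log2(FPKM + 1). The number of set genes called lower was 0 with limma on log2(FPKM + 0.1) and with limma on log2(FPKM + 1) without a filter, and 1 for each left-out library, while 0 were called higher in all of these. Single libraries decided the sign of small differences: the ranges of log2 fold change over left-out libraries were -0.20 to 0.062 for HSP70-4, -0.42 to 0.12 for HSP90.1, -0.42 to 1.57 for HSFA2, -0.23 to 0.089 for HSFA7A, -0.10 to 0.11 for HSFA1B, -0.32 to 0.090 for HSFA1D and -0.15 to 0.10 for NF-YC10. GBPL3 ranged from -2.15 to -1.97. Of the heat lists 14 genes were called, but 3 to 16 with a library left out, 6 with the replicate block (HSC70-1, HSP70-3, CPHSC70-1, BIP2, HSP90.2, CLPC2 and FES1A among those lost), 2 with limma on log2(FPKM + 1), 1 with log2(FPKM + 0.1) and 1 without a filter. Over all genes 2222 were called, 949 to 2681 with a library left out, and 558, 327 and 380 in those limma fits. The cause was not tested. Replicate numbers did not pair the libraries: deviations of same-numbered libraries correlated at -0.0647 to 0.0355, and 1 of 3 Col-0 libraries correlated best with its own number. Depth limits HSFA2, HSP17.6II and HSP17.6A.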
